A study of Rattus norvegicus with 21 samples.

Results

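The enzymes of 3 families that attach a polar group to drugs, steroids, bile acids and reactive metabolites were followed through the growth of a bile duct cancer in rat liver. They were the UDP-glucuronosyltransferases (Ugt), the cytosolic sulfotransferases (Sult) and the glutathione S-transferases of the alpha, kappa, mu, omega, pi, theta and zeta classes (Gst). Members were the genes whose symbol begins with Ugt or Sult and a number, or with Gst, one of these class letters and a number, and that a probe set naming no other gene measured. Each gene was represented by its probe set with the highest mean over the 21 arrays. This gave 43 members of 14218 genes in all, namely 9 Ugt, 14 Sult and 20 Gst genes.

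The tissues came from 9 male young adult Fischer 344 rats, each carrying a tumour grown in the liver from BDEneu cells, which are rat cholangiocytes transformed with activated neu (Erbb2). The 7 groups were peritoneal metastases of day 25, tumours of days 10, 15 and 25 after inoculation, and right liver lobes of days 10, 15 and 25, labelled as normal, with 3 arrays each. Rats 1 to 3 gave the samples of day 10, rats 4 to 6 those of day 15 and rats 7 to 9 those of day 25, so tumour, liver and metastasis of a day came from the same animals. No group held liver of a rat without a tumour, and all tumours came from 1 cell line. The description field of the day 25 livers names day 55, whereas title and source name give day 25, which was used. The deposited values are log2 levels made with RMA, and a difference of 1 is 2-fold. A probe set's level was compared across arrays and not with the level of another probe set, since probes differ in brightness. Array medians over all probe sets lay between 5.98 and 6.06.

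In liver, conjugation follows the oxidation of many compounds by cytochrome P450 enzymes and makes the products soluble enough for export into bile or urine. Ugt enzymes sit in the endoplasmic reticulum and use UDP-glucuronic acid. Sult enzymes of the cytosol use PAPS (3'-phosphoadenosine 5'-phosphosulfate), and Gst enzymes use glutathione. Hepatocytes hold most of this capacity, while the pi class enzyme Gstp1 is the form of bile duct epithelium and of the early neoplastic foci of rat liver.

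The defining markers fitted the labelled tissues. The mean level of 15 measured hepatocyte markers of 18 listed ran from 5.63 to 6.53 in metastases, from 9.85 to 10.82, from 9.03 to 11.2 and from 7.36 to 9.97 in tumours of days 10, 15 and 25, and from 11.71 to 12.53 in livers. The mean of 8 measured bile duct markers of 10 ran from 11.12 to 11.84 in tumours and metastases and from 5.59 to 7.54 in livers. The mean of 10 fibroblast markers ran from 10.33 to 11.84 in tumours and metastases and from 6.81 to 8.38 in livers. The mean of 9 pancreatic acinar markers of 10 stood apart at 8.66 in the day 15 tumour of rat 5, at 8.51 in the day 25 tumour of rat 9 and at 10.91 in the metastasis of rat 8, and was at most 6.42 elsewhere. In whole tissue, fewer hepatocytes and less RNA of a gene per hepatocyte cannot be told apart, and the part that the marker differences have in the results below was not tested.

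Of the 43 members, 36 exceeded the lowest array median of 5.98 on some array. The other 7 (Gsta3l1, Gstm6l, Sult1d1, Sult2a1, Ugt2b, Ugt2b7 and Ugt8) stayed below it on all 21 arrays.

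**Figure D1:**
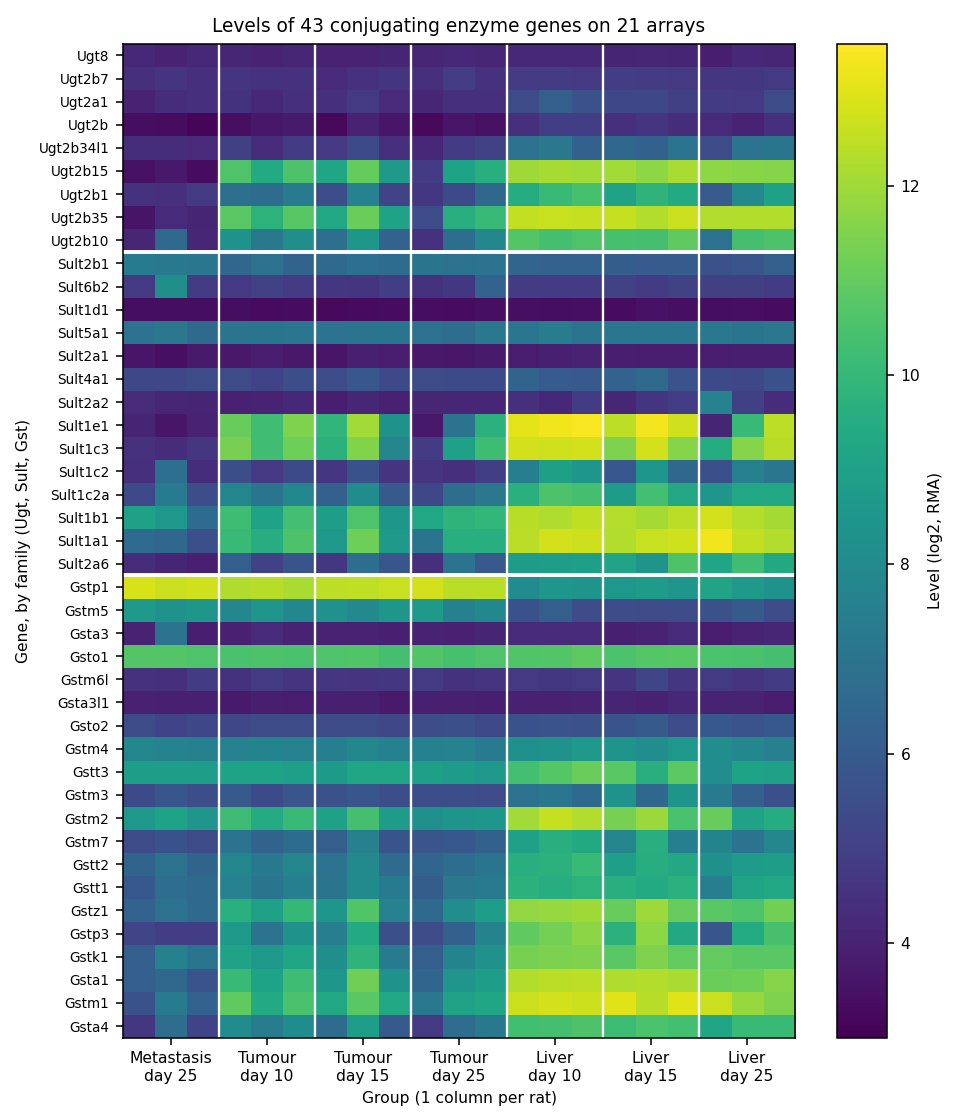
Heat map of the log2 level of the 43 members (1 per line, by family) on the 21 arrays (columns: metastases, tumours of days 10, 15 and 25, livers of days 10, 15 and 25), to be read along a line because probe sets differ in brightness. Most lines are darker in metastases and tumours than in livers, and Gstp1 and Gstm5 are brighter there.

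The question was which conjugating enzymes the tumour holds at a higher or lower level than the right liver lobe of the same rats. It was addressed by the mean of the 3 within-day differences, tested with limma. A gene was called at a Benjamini-Hochberg adjusted p under 0.05 over all genes. In tumours 3 members were higher and 33 lower, and 7 were not called. Over all genes 36.8% were called higher and 37.8% lower. A change of 2-fold or more was called for 2 members higher (12.7% of all genes) and for 24 lower (8.34% of all genes). The median difference was -1.87 over the members and -0.03 over all genes. Among Ugt genes 0 were higher and 8 of 9 lower (median -1.87), among Sult genes 1 was higher and 10 of 14 lower (median -1.59), and among Gst genes 2 were higher and 15 of 20 lower (median -1.66). Tumour and liver arrays did not overlap, in either direction, for 13 members, against 32.2% of all genes. Centring each array on its median would move the tumour-liver median of all genes by -0.23, so small differences depend on the scaling.

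**Figure D2:**
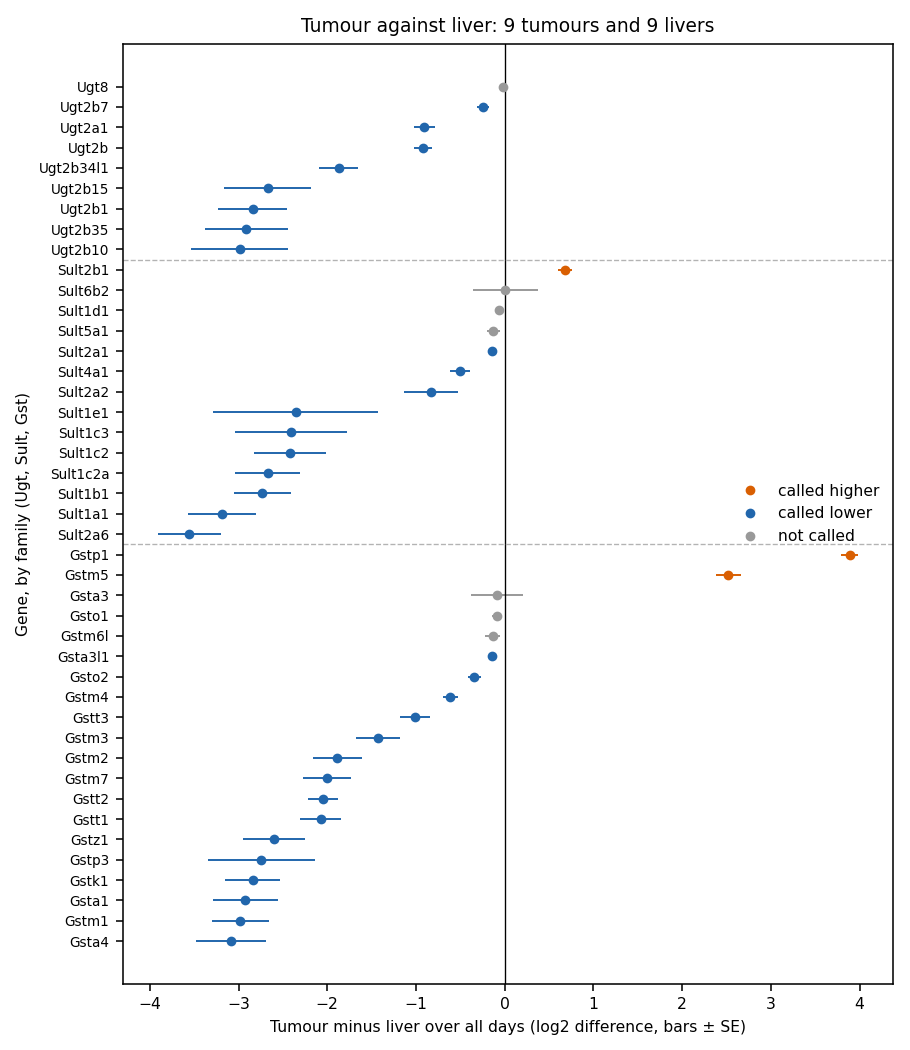
Difference between 9 tumours and 9 livers over all days (log2, x axis) for each member, grouped by family and ordered by size, with the standard error as a bar and colour for the call. Gstp1, Gstm5 and Sult2b1 lie right of 0, and most others lie left of it.

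The member with the largest rise was Gstp1, the pi class enzyme that serves as a marker of neoplastic foci in rat liver. Its lowest, median and highest levels were 12.16, 12.42 and 12.77 in the 9 tumours, and 8.06, 8.50 and 9.12 in the 9 livers. The ranges lay more than 3 log2 units apart. The level was 12.44 ± 0.18 in tumours and 8.55 ± 0.29 in livers (SD, n = 9 each), a difference of 3.89 (SE 0.10, limma adjusted p = 1.5e-14). The difference was 3.92 at day 10, 3.90 at day 15 and 3.84 at day 25.

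Gstm5, a mu class glutathione S-transferase, rose as well. Its lowest, median and highest levels were 7.62, 8.03 and 8.65 in tumours, and 5.40, 5.50 and 6.16 in livers, without overlap. The difference was 2.52 (SE 0.14, limma adjusted p = 1.6e-10). Sult2b1, which puts sulfate on cholesterol and pregnenolone and is known mainly from skin, was the only Sult member called higher. Its lowest, median and highest levels were 6.35, 6.84 and 7.05 in tumours, and 5.59, 6.09 and 6.44 in livers, so the highest liver array reached into the tumour range. The difference was 0.68 (SE 0.08, limma adjusted p = 1.2e-06), and a further probe set of the gene gave 0.90. All 3 genes were higher in the tumour than in the liver of the same animal in 9 of 9 rats, and higher in the metastasis in 3 of 3 rats.

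Windows of 300 bases from RefSeq's promoter table (250 before and 50 after the transcript start it uses) are shown for the 3 members that rose and for a relative of each Gst among them that fell. The assembly is GRCr8, letters run 5' to 3' on the gene's strand, and capitals mark motif matches described after them. For Gstm1, Gstp1 and Gstp3, as for other members, that start lies inside the outer limits of the gene in RefSeq's gene table, so a further start upstream is not covered. Gstp1 lies at chr1:210769656-210769955 (minus strand), Gstp3 at chr1:210787635-210787934 (minus), Gstm5 at chr2:198219519-198219818 (plus), Gstm1 at chr2:198343334-198343633 (minus) and Sult2b1 at chr1:105397695-105397994 (minus).
Gstp1: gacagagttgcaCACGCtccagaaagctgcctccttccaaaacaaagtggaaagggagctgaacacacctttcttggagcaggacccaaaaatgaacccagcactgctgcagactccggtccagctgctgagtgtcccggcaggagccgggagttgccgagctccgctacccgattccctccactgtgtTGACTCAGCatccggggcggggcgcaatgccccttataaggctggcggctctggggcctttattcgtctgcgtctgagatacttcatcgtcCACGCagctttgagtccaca
Gstp3: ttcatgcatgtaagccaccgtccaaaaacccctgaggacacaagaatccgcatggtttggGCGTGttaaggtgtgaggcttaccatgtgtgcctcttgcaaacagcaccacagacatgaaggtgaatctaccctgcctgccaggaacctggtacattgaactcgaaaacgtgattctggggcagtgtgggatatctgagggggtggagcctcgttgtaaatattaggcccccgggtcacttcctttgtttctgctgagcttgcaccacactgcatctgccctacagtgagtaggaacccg
Gstm5: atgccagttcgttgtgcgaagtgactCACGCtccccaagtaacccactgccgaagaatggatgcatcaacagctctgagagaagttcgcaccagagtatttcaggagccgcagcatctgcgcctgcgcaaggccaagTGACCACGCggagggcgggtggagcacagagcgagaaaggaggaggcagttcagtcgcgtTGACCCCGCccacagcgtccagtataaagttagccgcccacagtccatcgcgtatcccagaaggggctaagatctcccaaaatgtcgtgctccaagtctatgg
Gstm1: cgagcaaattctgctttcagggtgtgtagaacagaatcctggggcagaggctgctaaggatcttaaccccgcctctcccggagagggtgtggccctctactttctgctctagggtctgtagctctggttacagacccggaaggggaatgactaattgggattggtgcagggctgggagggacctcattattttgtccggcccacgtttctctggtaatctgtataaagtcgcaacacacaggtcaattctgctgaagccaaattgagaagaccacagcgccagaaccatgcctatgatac
Sult2b1: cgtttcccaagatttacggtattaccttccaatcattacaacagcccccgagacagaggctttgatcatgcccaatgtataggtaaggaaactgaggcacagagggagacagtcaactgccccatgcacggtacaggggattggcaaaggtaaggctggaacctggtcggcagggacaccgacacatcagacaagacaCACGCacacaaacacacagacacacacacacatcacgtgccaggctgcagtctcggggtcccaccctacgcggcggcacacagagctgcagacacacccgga
The motifs searched on both strands were the antioxidant response element core TGACNNNGC, the HNF1 core GTTAAT and the Ah receptor core GCGTG, so a match on the other strand shows as the reverse complement. In Gstm5 a match of the antioxidant core and one of the Ah receptor core overlap. A window was given for 38 of the 43 members.

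The antioxidant core was present in 2 of the 3 higher genes (Gstp1 and Gstm5) and in 3 of the 29 lower genes with a window (Gsta1, Gstm7 and Gstz1). It was present in 12.1% of all 33465 windows. The Ah receptor core was present in all 3 higher genes and in 4 of the 29 lower ones (Gsta4, Gstm4, Gstp3 and Ugt2b34l1), against 29.7% of all windows. The HNF1 core was present in 0 of the 3 higher genes and in 4 of the 29 lower ones (Gsta1, Sult2a2, Sult2a6 and Ugt2b10), against 7.44% of all windows. Of the 6 uncalled genes with a window, the Ah receptor core was present in 2 (Gsta3 and Ugt8). The antioxidant core and the HNF1 core were each present in 1 of these 6 (Gsta3). The groups are small, and counts of genes are not directly comparable with shares of windows. Whether the motifs differ between higher, lower and uncalled genes was not tested. These are matches of letters in the windows and say nothing about binding. Gstp1 and Gstp3 follow each other directly in the gene order of the RefSeq table, and the 2 windows shown were 49.9% identical, near the median of 49.2% over all 703 pairs of member windows. Gstm5 lies at the edge of a run of mu class genes that also holds Gstm6l, Gstm7, Gstm3, Gstm2, Gstm1 and Gstm4, and its window was 52.0% identical to that of Gstm1. Of these neighbours, Gstm6l was not called in tumour against liver and the others were lower.

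Among the Ugt genes, which share steroids, bile acids and drugs as substrates, the members of the 2B subfamily showed the largest falls. Ugt2b35 had a lowest, median and highest level of 5.46, 9.80 and 11.11 in tumours, and of 12.28, 12.54 and 12.67 in livers. The difference was -2.91 (SE 0.47, limma adjusted p = 3.5e-05), with every tumour below every liver and a much wider spread in tumours. Ugt2b15 fell by 2.67 (SE 0.49), also without overlap, and Ugt2b34l1 fell by 1.87 (SE 0.22), also without overlap. Ugt2b10 fell by 2.99 (SE 0.55) and Ugt2b1, a rat enzyme that glucuronidates morphine, fell by 2.84 (SE 0.39). Both overlapped, with a liver of 6.90 and of 6.01 as their lowest, in each case that of rat 7. Ugt2a1, known from olfactory epithelium, fell by 0.91, and only the liver of rat 2 (6.18) lay above the array medians. Ugt2b (-0.92) and Ugt2b7 (-0.24) fell at levels under the array medians. Ugt8, which makes galactosylceramide of myelin and no drug conjugate, was not called (-0.02, 4.10 ± 0.06 in tumours and 4.12 ± 0.09 in livers, SD, n = 9 each).

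A second kind of probe set stood apart from these genes. The first exons of the Ugt1a locus are alternative and the others shared, and 2 probe sets were annotated to 8 Ugt1a genes together, so they are no members. One of them lay between 11.98 and 12.42 in tumours, and between 11.94 and 12.55 in livers, with a difference of -0.03 (SE 0.09, limma adjusted p = 0.8). The other differed by -0.11 (SE 0.11, limma adjusted p = 0.39). Which of the 8 genes these levels belong to in each tissue was not analysed here. A probe set shared by Gsta5 and Gsta2 was 2.69 lower in tumours (SE 0.49, limma adjusted p = 0.00011).

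Sult2a6, of the hydroxysteroid sulfotransferases that act on dehydroepiandrosterone and bile acids, had the largest fall of all members. Its lowest, median and highest levels were 4.42, 5.80 and 6.98 in tumours, and 8.42, 9.15 and 10.58 in livers, without overlap. The difference was -3.55 (SE 0.36, limma adjusted p = 1.5e-07). Sult1a1, the main phenol sulfotransferase, fell by 3.19 (SE 0.38), and Sult1b1, which acts on thyroid hormones and phenols, fell by 2.73 (SE 0.32), both without overlap. Of the 1C subfamily, Sult1c2a fell by 2.67 without overlap, and Sult1c2 (-2.42) and Sult1c3 (-2.41) fell with overlap.

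The estrogen sulfotransferase Sult1e1 varied most. Its lowest, median and highest levels were 3.73, 9.91 and 12.04 in tumours, and 4.07, 12.74 and 13.40 in livers. The ranges nearly coincide only through the liver of rat 7, the lowest. The other livers lay between 10.09 and 13.40 and still overlapped the tumours. Within animals Sult1e1 was lower in the tumour in 9 of 9 rats. The differences lay between -0.34 in rat 7, where both tissues were low, and -4.37 in rat 6. The difference of -2.36 had an SE of 0.93 (limma adjusted p = 0.031). Sult2a2 (-0.83), Sult4a1, a brain protein of unknown substrate (-0.50), and Sult2a1 (-0.14) fell as well, Sult2a1 at levels under the array medians. Sult2a2 exceeded the array medians only in the liver of rat 7 (7.66) and lay between 3.90 and 4.98 elsewhere. Its difference from the liver of the same rat was -3.54 in rat 7 and between -0.14 and -0.91 in the other rats. Sult5a1 (-0.13, 7.03 ± 0.12 in tumours and 7.16 ± 0.11 in livers), Sult1d1 (-0.07) and Sult6b2 (0.01) were not called. Without the day 25 tumour of rat 9, Sult5a1 passed the test (-0.17, limma adjusted p = 0.042).

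The Gst genes that fell came from every class. Gsta4, which conjugates the lipid peroxidation product 4-hydroxynonenal, had a lowest, median and highest level of 4.77, 7.26 and 8.89 in tumours, and of 9.18, 10.31 and 10.56 in livers, without overlap. It fell by 3.08 (SE 0.39, limma adjusted p = 2.5e-06). The mu class Gstm1 fell by 2.98 (SE 0.32), and the kappa class Gstk1 of mitochondria and peroxisomes fell by 2.84 (SE 0.31), both without overlap. Gsta1, an alpha class enzyme that also binds bilirubin and haem, fell by 2.92 (SE 0.36), with 1 tumour, that of rat 5 at 11.22, above the lowest liver at 11.14. Gstp3, the neighbour of Gstp1, fell by 2.74 (SE 0.61, limma adjusted p = 0.00068), and Gstz1, the maleylacetoacetate isomerase of tyrosine breakdown, fell by 2.60 (SE 0.35).

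Gstt1 (-2.07), Gstt2 (-2.05) and Gstt3 (-1.01) of the theta class and Gstm2 (-1.89), Gstm3 (-1.42) and Gstm7 (6.39 ± 0.62 in tumours and 8.38 ± 0.99 in livers, SD, n = 9 each) of the mu class fell too. The falls were smaller for Gstm4 (-0.61), Gsto2 (-0.34) and Gsta3l1 (-0.14), the last at levels under the array medians. Gsto1, an omega class enzyme that reduces dehydroascorbate, was not called: its level was 10.54 ± 0.09 in tumours and 10.63 ± 0.17 in livers (SD, n = 9 each), a difference of -0.09 (SE 0.05, limma adjusted p = 0.14). With each array centred on its gene median that difference was -0.32 and passed the test, as did those of Sult5a1 (-0.36), Sult1d1 (-0.30) and Ugt8 (-0.25). Gsta3 (-0.09) and Gstm6l (-0.13) were not called.

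**Figure D3:**
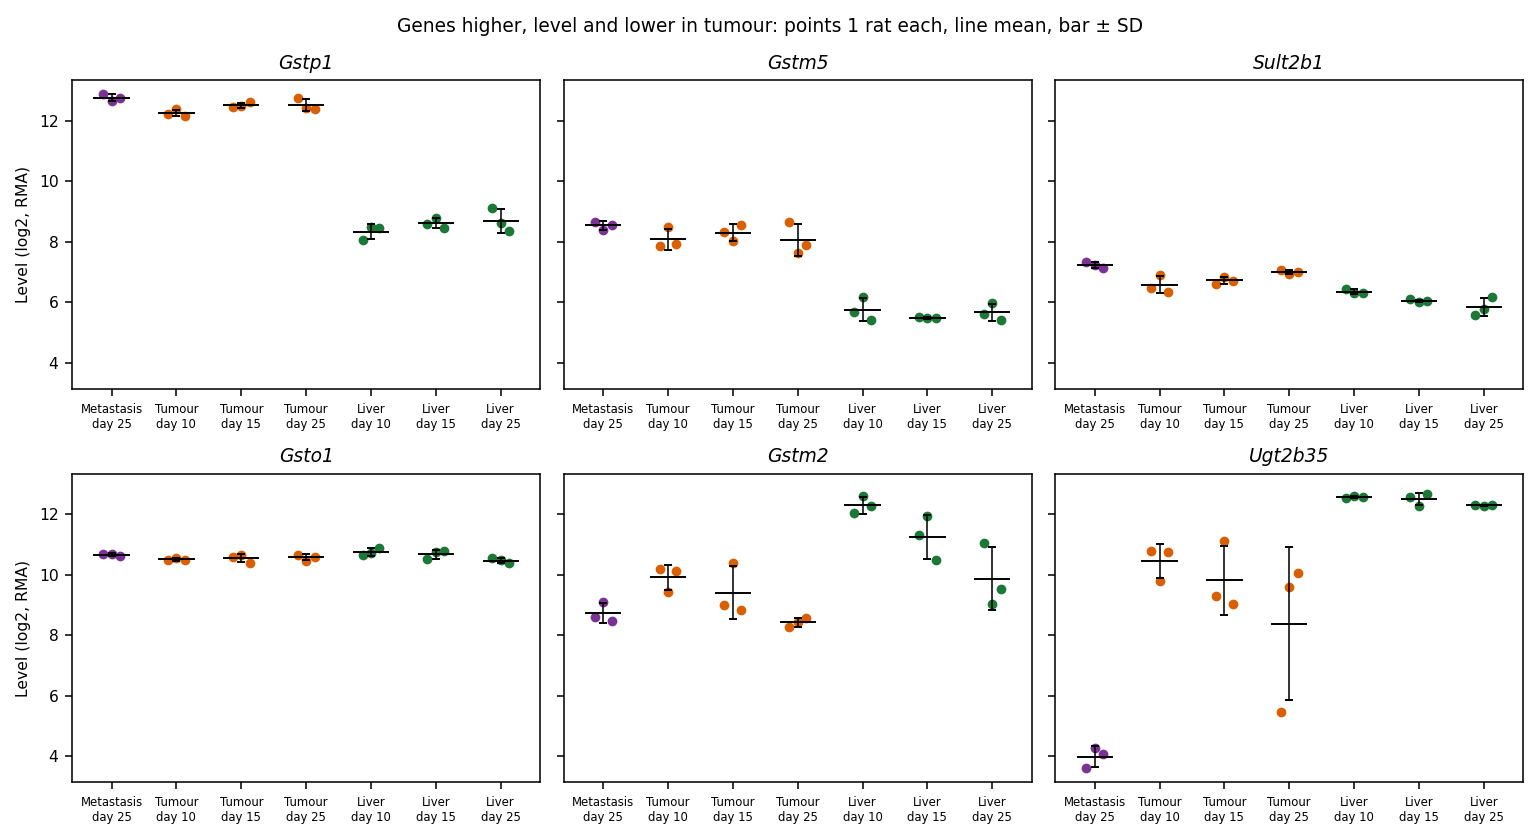
Log2 level of 6 members in the 7 groups, with 1 point per array, the mean as a line and the SD as a bar (n = 3). Gstp1 and Gstm5 are high in every metastasis and tumour and low in every liver, Gsto1 stays between 10.39 and 10.90, and Ugt2b35 is lowest in the metastases.

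Tested day by day, 2 members were higher and 28 lower in tumours of day 10 (30.4% and 28% of all genes), 3 were higher and 29 lower at day 15 (28.2% and 23.6%), and 3 were higher and 24 lower at day 25 (27.7% and 22.4%). Sult2b1 was the gene not yet called higher at day 10. The median difference was -1.83, -1.81 and -1.53 at days 10, 15 and 25. For Gst genes it was -1.95, -1.83 and -1.18, for Sult genes -1.30, -1.35 and -1.79, and for Ugt genes -1.85, -1.75 and -1.79. Whether the family medians differ between days was not tested. Gsto1 was lower at day 10 only (-0.24, limma adjusted p = 0.036), with -0.09 over all days. With the rat as a random block, 2 more genes passed at day 10 with small differences, Gsta3l1 (-0.17, limma adjusted p = 0.042, against 0.057 without the block) and Sult2a1 (-0.19, 0.049 against 0.067).

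Set against the liver of the same rat, the median Gst difference of the 9 tumours lay between -0.67 in rat 8 and -2.13 in rat 2, and that of the Ugt genes between -0.72 in rat 5 and -2.68 in rat 2. The median difference of the hepatocyte markers lay between -1.34 in rat 5, where the tumour kept 39.6% of the liver level, and -5.12 in rat 7, where it kept 2.87%. In rat 7 the median was -1.22 for Ugt, -0.72 for Sult and -0.97 for Gst genes, which counts genes under the array medians and genes low in that liver. Some single members lay further below the liver than the hepatocyte marker median did, with -6.86 for Ugt2b15, -6.85 for Ugt2b35, -6.25 for Sult1a1 and -5.42 for Gstm1. The liver of rat 7 was itself the lowest of all livers for many members, among them Ugt2b1, Ugt2b10, Ugt2b34l1, Sult1e1, Sult1c3, Sult1c2, Sult1c2a and Sult2b1. The same held for Gstp3, Gsta1, Gsta4, Gstt1, Gstt2 and Gstt3. It was the highest of all livers for others, among them Sult1a1 (13.28), Sult1b1 (12.80) and Sult2a2 (7.66).

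**Figure D4:**
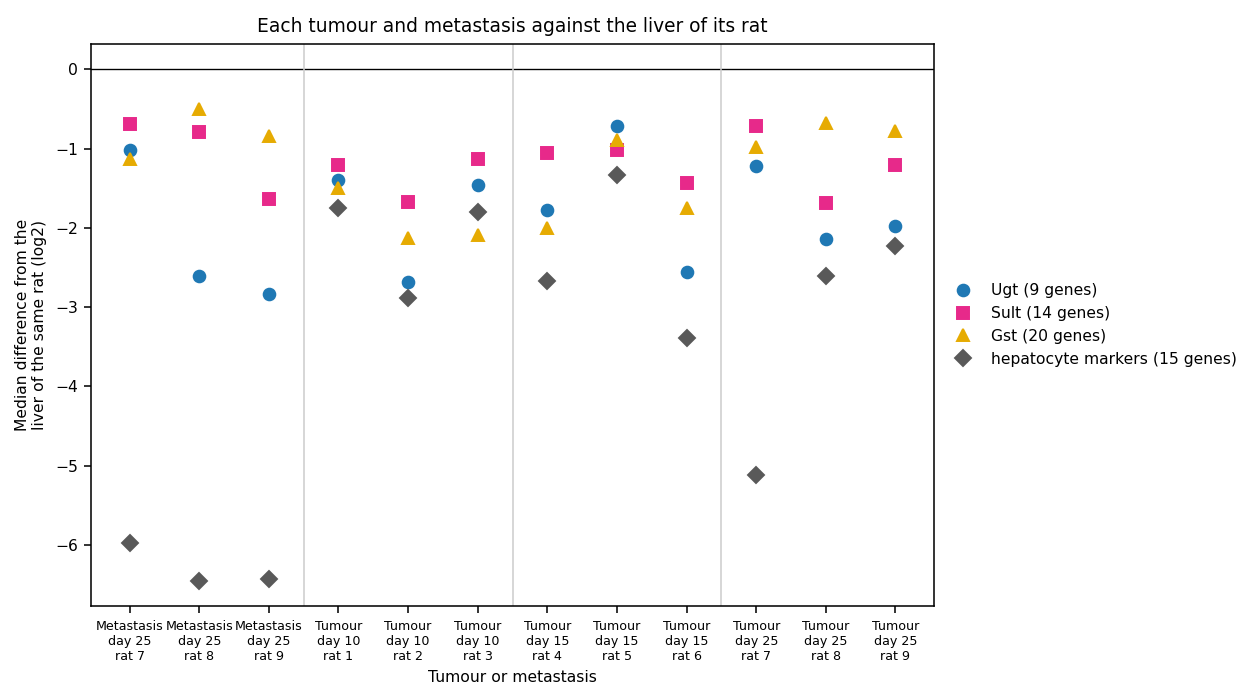
Median log2 difference of each tumour and metastasis from the liver of its own rat, for the Ugt, Sult and Gst genes and for 15 hepatocyte markers. The hepatocyte markers lie between -1.34 and -5.12 in tumours and between -5.97 and -6.45 in metastases, and the family medians, which count genes of low level, stay above -3.

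The change of the tumour-liver difference between day 25 and day 10 was tested directly as an interaction. It was called for 2 members, both with a rise (0.373% of all genes were called in this direction and 1.09% in the other). For Sult2b1 the tumour-liver difference was 1.15 at day 25 and 0.22 at day 10, a change of 0.92 (SE 0.20, limma adjusted p = 0.036). Its levels were 7.05, 6.92 and 7.00 in day 25 tumours and 6.48, 6.90 and 6.35 in day 10 tumours. In livers they were 5.59, 5.77 and 6.18 at day 25 and 6.44, 6.30 and 6.32 at day 10. In this probe set the tumours lay higher and the livers lower at the later day, without overlap in either tissue. In the further probe set of Sult2b1 the tumours of the 2 days overlapped (0.17, limma adjusted p = 0.7). The livers differed there by -1.06 (limma adjusted p = 0.0072). For Gstt3, a theta class enzyme, the difference was 0.04 at day 25 and -1.70 at day 10, a change of 1.74 (SE 0.42, limma adjusted p = 0.048). Its tumour levels stayed between 8.61 and 9.23 on all days, and the change lay in the livers described below. Both calls rest on few arrays: without any 1 array the adjusted p ran from 0.0069 to 0.092 for Sult2b1 and from 0.015 to 0.13 for Gstt3. Sult2b1 was not called without the tumour of rat 1, 3, 7 or 8 or the liver of rat 1, 2, 3, 4, 7 or 8. Gstt3 was called only without the tumour of rat 9, the metastasis of rat 7 or the liver of rat 5, 6 or 9. Neither was called without the 3 arrays of rat 7 (changes of 0.76 for Sult2b1 and 1.35 for Gstt3).

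The peritoneal metastases were set against the liver of the same 3 rats. In metastases 3 members were higher and 25 lower (33.4% and 23.6% of all genes), and the day 25 tumours share these livers, so the comparisons are not independent. The 3 higher genes were again Gstp1 (4.07), Gstm5 (2.88) and Sult2b1 (1.38). Gstp1 was at 12.88, 12.67 and 12.76 in metastases and at 9.12, 8.63 and 8.34 in day 25 livers. Gstm5 was at 8.67, 8.38 and 8.57 in metastases and at 5.62, 5.96 and 5.40 in livers. Sult2b1 was at 7.32, 7.24 and 7.12 in metastases and at 5.59, 5.77 and 6.18 in livers. None of the 3 overlapped between the tissues, where 58.7% of all genes did not overlap.

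The largest falls in metastases were those of Ugt2b35 (-8.33, SE 0.82), Ugt2b15 (-8.14, SE 0.85), Sult1c3 (-6.67, SE 1.09), Sult1a1 (-6.44, SE 0.66) and Gstm1 (-5.58, SE 0.56). Ugt2b35 was at 3.59, 4.25 and 4.08 in metastases and at 12.31, 12.28 and 12.30 in day 25 livers. Sult1a1 was at 6.66, 6.52 and 5.56 in metastases and at 13.28, 12.52 and 12.27 in livers. Sult1b1 also fell (-4.31) but was still at 9.01, 8.60 and 6.67 in metastases, against 12.80, 12.34 and 12.08 in livers. Gsto1 was not called (0.20, 10.66 ± 0.05 in metastases and 10.47 ± 0.07 in livers, SD, n = 3 each). Gstm2 (-1.14, limma adjusted p = 0.051) passed the test with the rat as a random block (0.035). Its levels were 8.61, 9.11 and 8.46 in metastases and 11.04, 9.04 and 9.52 in livers, which overlapped.

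Metastases and tumours of day 25 were compared in the same rats. In metastases 0 members were higher and 2 lower (0.00703% and 0.331% of all genes), and 8 members had an unadjusted limma p under 0.05, as had 863 of all 14218 genes. Ugt2b35 was at 3.59, 4.25 and 4.08 in metastases and at 5.46, 9.60 and 10.06 in tumours (-4.40, SE 0.82, limma adjusted p = 0.02). Ugt2b15 was at 3.47, 3.71 and 3.35 in metastases and at 4.87, 9.08 and 9.63 in tumours (-4.35, SE 0.85, limma adjusted p = 0.03). Metastases lay below tumours for both genes without overlap, and the tumour of rat 7 lay far below the other 2 tumours. Over all members, 9 did not overlap in either direction, against 10.9% of all genes. Albumin, the main secreted protein of hepatocytes, moved the same way, with means of 8.42 in metastases and 13.45 in day 25 tumours. The mean of the 15 hepatocyte markers was 6.04 in metastases and 9.06 in day 25 tumours. Their median difference from the liver of the same rat was -5.12 in the tumour and -5.97 in the metastasis of rat 7. It was -2.60 and -6.45 in rat 8, and -2.23 and -6.43 in rat 9. The part of hepatocytes in the 2 calls was not tested.

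These 2 calls depended on single arrays. Neither gene was called without the day 25 tumour of rat 8 or 9 or without the metastasis of rat 7, 8 or 9, with differences from -3.46 to -4.54. Without any 1 of the livers of rats 1, 2, 3, 6, 8 or 9, only Ugt2b35 was called. Without the day 25 tumour of rat 7 the number called lower was 6. It was also 6 without all 3 arrays of rat 7, with Gstm1 (-2.31), Sult1a1 (-3.59), Sult1c3 (-5.13) and Sult1e1 (-4.55) added. In that fit 1.32% of all genes were called in either direction. Without the 3 arrays with pancreatic transcripts 0 members were called, against 0.134% of all genes.

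Between tumours of day 25 and day 10, 0 members were called by limma (0.0141% of all genes were called higher and 0.0422% lower), and 13 had an unadjusted p under 0.05, as had 2444 of all 14218 genes. Of these 13, Sult2b1 had a difference of 0.42 and the other 12 had negative ones. Gstm1 was at 7.22, 9.04 and 9.21 at day 25 and at 10.95, 9.42 and 10.50 at day 10 (-1.80). Sult1e1 was at 3.73, 6.99 and 9.76 at day 25 and at 11.08, 10.27 and 11.47 at day 10 (-4.11). Neither gene overlapped between the days. Over all members, 13 did not overlap in either direction, against 27.2% of all genes. Without the 3 arrays with pancreatic transcripts 9 members were called lower (Gsta1, Gsta4, Gstk1, Gstm1, Gstt2, Gstz1, Sult1c3, Ugt2b15 and Ugt2b35), and 8.13% of all genes were called in either direction. Of the neighbouring days, day 15 against day 10 gave 0 called members by limma (0% of all genes), with 0 members and 350 of all genes at an unadjusted p under 0.05. Day 25 against day 15 gave 0 called (0%), with 2 members and 1202 of all genes at an unadjusted p under 0.05.

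In liver, 0 members were higher and 9 lower at day 25 than at day 10 (5.33% and 3.77% of all genes). The median difference was -0.51 over the members and -0.01 over all genes. The 9 were 5 Gst, 2 Sult and 2 Ugt genes. Of the 15 hepatocyte markers 0 were called, with a median of -0.05. Of the markers of other cells, 2 of 8 bile duct, 2 of 10 fibroblast and 2 of 7 macrophage markers were higher and 0 lower, and 1 of 9 acinar markers was lower. Tspan8 (1.74, limma adjusted p = 0.0077) and Cd24 (1.77, 0.038) were the bile duct markers, Dcn (2.34, 0.003) and Col1a2 (1.42, 0.045) the fibroblast ones, and Cd68 (0.77, 0.0088) and Cd163 (adjusted p = 0.019) the macrophage ones. The mean of the bile duct list ran from 5.80 to 7.54 at day 25 and from 5.59 to 5.83 at day 10, and that of the fibroblast list from 7.44 to 8.38 at day 25 and from 6.81 to 7.72 at day 10. That of the macrophage list ran from 9.18 to 9.73 at day 25 and from 8.89 to 9.16 at day 10. The part of these cells in the liver results was not tested. Gstt3 was at 8.13, 9.11 and 8.99 at day 25 and at 10.35, 10.73 and 11.10 at day 10 (-1.99, SE 0.29, limma adjusted p = 0.001). Gstm2 was at 11.04, 9.04 and 9.52 at day 25 and at 12.03, 12.59 and 12.28 at day 10 (-2.43, SE 0.48, limma adjusted p = 0.0059). Ugt2b1 was at 6.01, 7.99 and 9.00 at day 25 and at 9.50, 10.10 and 10.45 at day 10 (-2.35, SE 0.68, limma adjusted p = 0.039). The days did not overlap for these 3 genes. Over all members, 25 did not overlap in either direction, against 30.3% of all genes.

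The other called genes were Gstm7 (-1.78), Gstt2 (-1.18), Ugt2a1 (-0.70), Sult4a1 (-0.67), Gstm4 (-0.57) and Sult2b1 (-0.51). Gstm2, Gstm4 and Gstt3 were called without the liver of rat 7, and these 3 were the only ones. Without all 3 arrays of rat 7, 0 members were higher and 3 lower. In that fit 7.8% of all genes were called in either direction. Without the day 10 liver of rat 2 or of rat 3 only Gstm2 and Gstt3 were called, without the day 25 liver of rat 8 there were 3 calls, and without that of rat 9 there were 12. Ugt2b1 was also not called without the tumour of rat 1, 3 or 8, the metastasis of rat 9 or the liver of rat 1, with the adjusted p at most 0.18 over all single arrays left out. At day 25 against day 15, 2 members were lower (1.38% of all genes were called lower and 0.823% higher), Gstt3 (-1.69, limma adjusted p = 0.0072) and Sult4a1 (-0.78, limma adjusted p = 0.049). The call of Sult4a1 held only without the tumour of rat 5 or the liver of rat 6 or 9, and was lost without any other array. At day 15 against day 10, 0 members were called by limma (0.0281% of all genes), with 4 members and 1438 of all genes at an unadjusted p under 0.05.

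Several uncalled genes differed widely among the 3 livers of day 25. Sult1e1 was at 4.07, 10.09 and 12.45 at day 25 and at 13.05, 13.26 and 13.40 at day 10 (-4.36, SE 1.61, limma adjusted p = 0.1). Gstp3 was at 5.81, 9.48 and 10.46 at day 25 and at 10.94, 11.29 and 11.69 at day 10 (-2.72, SE 1.05, limma adjusted p = 0.12). In both genes the liver of rat 7 was the lowest and all day 25 livers lay below all day 10 livers. Sult2a2, a hydroxysteroid sulfotransferase that is higher in female than in male rat liver, ran the other way in rat 7, with 7.66, 4.98 and 4.32 at day 25 and 4.44, 4.18 and 4.86 at day 10 (1.16, SE 0.53, limma adjusted p = 0.19). The probe set shared by Gsta5 and Gsta2 was at 6.71, 9.14 and 10.32 at day 25 and at 11.63, 12.00 and 12.19 at day 10 (-3.21, SE 0.85, limma adjusted p = 0.026). By contrast Ugt2b35 lay at 12.31, 12.28 and 12.30 at day 25 and at 12.54, 12.60 and 12.58 at day 10, a difference of -0.27.

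**Figure D5:**
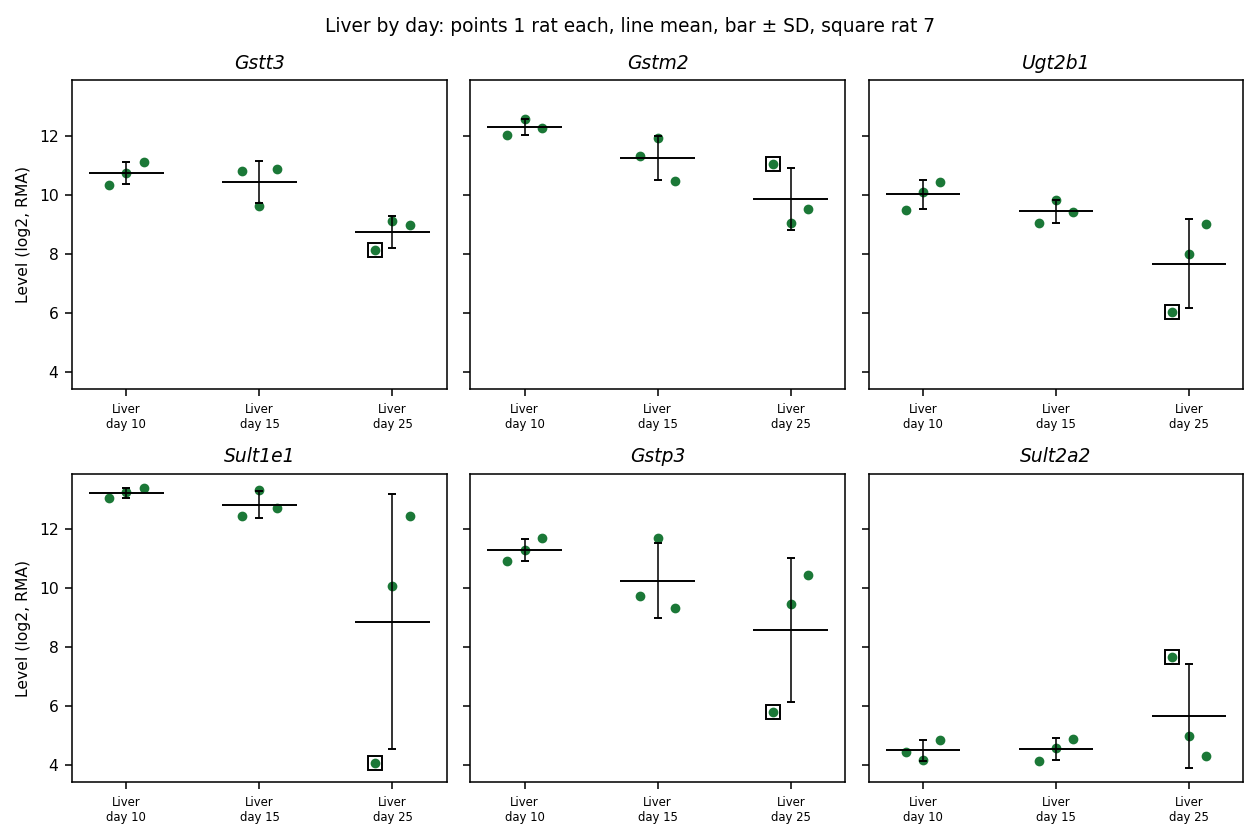
Log2 level of 6 members in the livers of days 10, 15 and 25, with 1 point per rat, the mean as a line, the SD as a bar (n = 3) and a square on rat 7. Gstt3, Gstm2 and Ugt2b1 were called lower at day 25 than at day 10. Rat 7 is lowest for Gstt3, Ugt2b1, Sult1e1 and Gstp3 and highest for Sult2a2.

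The genes that supply the donor groups did not all fall with the enzymes. Counts for these and the following lists in tumour against liver stand beside the 36.8% of all genes called higher and 37.8% called lower. For UDP-glucuronic acid, 0 of 3 genes were higher and 1 lower in tumours: Ugp2, which makes UDP-glucose, fell by 1.15, and Ugdh, which oxidises it to UDP-glucuronic acid, was not called over all days (0.12). At day 25 Ugdh was higher in tumours than in livers (0.62, limma adjusted p = 0.0024) and in metastases than in livers (0.61, 0.0024). The change of its tumour-liver difference between day 25 and day 10 was 0.93 (SE 0.21, limma adjusted p = 0.042). For sulfate and PAPS, 2 of 10 were higher and 5 lower. The PAPS synthase genes moved in opposite directions: Papss1 rose by 1.69 (SE 0.09, limma adjusted p = 1.3e-10), and Papss2 fell by 2.40 (SE 0.50, limma adjusted p = 0.00042). The PAPS transporter Slc35b2 rose by 0.29, and the sulfite oxidase Suox (-2.52) and the sulfate transporter Slc13a4 (-2.09) fell.

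For glutathione, 2 of 13 genes were higher and 7 lower in tumours (36.8% and 37.8% of all genes). Ggt1, which begins the breakdown of glutathione outside the cell, rose by 1.24, and glutathione reductase Gsr rose by 0.38. Cth (-3.45) and Cbs (-3.06), which make cysteine from homocysteine, fell, and Gclc, the catalytic subunit of the first step of glutathione synthesis, fell by 1.51. In liver at day 25 against day 10, where 5.33% of all genes were higher and 3.77% lower, Gclc (-1.07, limma adjusted p = 0.0035), its partner Gclm (-0.87, 0.014) and Ugdh (-0.72, 0.0077) fell. Slc13a4 (-3.13) and the sulfate transporter Slc26a1 (-1.10) also fell there.

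Of 13 measured transporters of conjugates and organic anions, 4 were higher and 9 lower in tumours (36.8% and 37.8% of all genes). Abcc1, Abcc3 and Abcc4, which export conjugates across the basolateral membrane, rose by 1.84, 1.14 and 1.04, and Abcc5 by 0.35. Abcc2, the export pump to bile, fell by 3.62, and the uptake carriers Slco1a1 (-3.14) and Slco1b2 (-3.03) fell. In liver Abcc3 rose by 1.96 at day 25 against day 10 (limma adjusted p = 0.0097), and the carriers Slco1a4 (-3.02), Slc22a8 (-2.62) and Slco1a1 (-2.35) fell.

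Of 6 genes of deconjugation and ester cleavage, 0 were higher and 4 lower in tumours (36.8% and 37.8% of all genes). The largest falls were those of the carboxylesterases Ces1d (-2.70) and Ces2c (-2.12) and the steroid sulfatase Sts (-1.89). The beta-glucuronidase Gusb (-0.08, limma adjusted p = 0.38) and Arsb (0.22, 0.28) were not called. In liver Ces1d fell by 5.84 at day 25 against day 10 (limma adjusted p = 0.00072) and the arylsulfatase Arsb rose by 1.36. Of 14 other conjugating enzymes, 2 were higher in tumours (Mgst2 by 0.19 and Nat2 by 0.14) and 10 lower, led by glycine N-methyltransferase Gnmt (-2.94), glycine N-acyltransferase Glyat (-2.94) and the arsenic methyltransferase As3mt (-2.93). In liver Inmt (-3.15), Glyat (-2.47), Mgst3 (-1.73) and Mgst2 (-0.89) fell at day 25 against day 10.

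Of 10 receptors and regulators, 0 were higher and 8 lower in tumours (36.8% and 37.8% of all genes). The pregnane X receptor Nr1i2 (-2.24), the hepatocyte factor Hnf4a (-2.24) and the bile acid receptor Nr1h4 (-2.08) fell. Nfe2l2, the factor that binds the antioxidant response element, was not called (0.16), nor was Ahr, the Ah receptor (-0.34, limma adjusted p = 0.08). In liver at day 25 against day 10, Nr1i3, the constitutive androstane receptor, fell by 1.39 and its partner Rxra fell by 0.75. Levels of transcripts are given here, and enzyme activity was not measured.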

How the data were processed

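Total RNA of snap-frozen tissue was hybridised to Affymetrix rat arrays. The deposited values are log2 levels of 31099 probe sets, made by the authors with RMA, per the submitters' processing notes. The program behind RMA and the genome build of the array are not stated. RMA aligns array distributions, so a shift of most transcripts would be removed in part. No detection calls came with the values, and the number of arrays limits the precision. The labels give no batch.

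Platform annotation named 1 gene for 20832 probe sets, several for 436 and none for 9831. Symbols were updated by gene ID, which a RefSeq table (assembly GRCr8) held for 20764 of the single-gene probe sets and for 42 of the 43 members. Similar genes of the Ugt2b, Sult2a and mu class clusters may share probes. The members, the gene lists and the rule for named genes were chosen with earlier results of these data known. All members are accounted for. Members with values were every one higher in tumours, up to 6 lower ones per family and the uncalled one with the highest mean. Other comparisons took up to 5 called genes per direction, and pathway lists up to 3. Genes given for their spread among livers, for a retained level or for single arrays were chosen after their values were seen.

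The 21 arrays were fitted in R 4.3.3 with limma 3.58.1 as 7 group means over 14218 genes, tested for 13 comparisons with Benjamini-Hochberg adjustment, and the procedure was tested on simulated data. Tissues of 1 rat pair the samples by design, and their deviations from group means correlated at 0.04 to 0.578. The rat as a random block (correlation 0.136) was an alternative, beside other scalings, filters, probe set rules and leaving out each array. Leaving out the 3 arrays with pancreatic transcripts or the 3 of rat 7 was chosen after seeing the data. Tables were made with Python 3.11.15 and pandas 2.3.3.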

Additional observations from a re-analysis of the deposited data

Results flagged for a closer look

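Gstt3 and Sult2b1 stood apart because their tumour-liver difference itself differed between day 25 and day 10 in the interaction test of limma. For Gstt3 the change of the difference was 1.739 (limma adjusted p = 0.048). Its 3 day 25 livers lay below its 3 day 10 livers, which came from other animals. For Sult2b1 the change was 0.9232 (limma adjusted p = 0.036), and its further probe set gave 1.23 (limma adjusted p = 0.056). In that further probe set the difference between these days was 0.17 in tumours and -1.06 in livers.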

How the results depend on the processing

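The 81 named pairs of a gene and a comparison were recomputed under 2498 alternatives in all: 2393 kept direction and side of the threshold, 94 lost the call, 11 gained it and 0 reversed. The number of members called in tumour against liver over all days ran from 35 to 37 without any 1 array. The replicate block of the rat gave 36 there as in the fit without it, and it changed no calls other than the 3 given in the report. Metastasis against tumour gave 0 without the pancreatic arrays, 6 without rat 7 and 0 to 6 without any 1 array. Tumour day 25 against day 10 gave 9 without the pancreatic arrays and 0 without any 1 array. Liver day 25 against day 10 gave 3 without rat 7, 5 at 2-fold or more and 2 to 12 without any 1 array. Liver day 25 against day 15 gave 1 with centring on the gene median, without the pancreatic arrays and at 2-fold or more. It also gave 1 with only genes whose mean exceeded the lowest gene median of an array (6.90). That filter left out Sult4a1 (mean 5.61), which was not tested there. The same comparison gave 4 without rat 7 and 1 to 4 without any 1 array. Liver day 15 against day 10 gave 0 to 1 without any 1 array. The interaction gave 1 with the mean of all probe sets, with repeated quantile normalization, without the pancreatic arrays and at 2-fold or more. It also gave 1 with the filter on the gene median, which left out Sult2b1 (mean 6.54) and so did not test it. The interaction gave 0 without rat 7 and 0 to 2 without any 1 array. The cause of the other differences was not tested. With 3 arrays a group and 1 array per tissue and rat, the spread between rats limits the comparisons of days and of metastases.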

Other observations

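The metastasis of rat 8, whose pancreatic acinar markers were high, had higher levels of several conjugating enzymes than the other metastases. Gsta3, an alpha class enzyme, was at 7.00 there and between 3.86 and 4.30 on the other 20 arrays. Sult6b2 was at 8.23 there, at 6.31 in the day 25 tumour of rat 9, which also held acinar transcripts, and at most 5.09 elsewhere. The day 15 tumour of rat 5, the third array with high acinar markers, had Sult6b2 at 4.61 and Gsta3 at 4.00, and the tumour of rat 9 had Gsta3 at 4.10. Sult1c2 was at 6.83 in this metastasis and at 4.46 and 4.39 in the other two, Ugt2b10 at 6.59 against 4.14 in each of them, and Gsta4 at 6.75 against 4.68 and 5.10. These genes were chosen after their values were seen, and the part of pancreatic tissue in them was not tested.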
